A study of Mus musculus with 6 samples.

Results

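Peaks of Bcl6 binding that lay close to another peak were examined in progenitors of the cortex derived from mouse embryonic stem (ES) cells. The members were chosen by measured peak positions alone: the 3878 peaks of the authors' table were sorted along each chromosome, a peak was kept where the gap to a neighbouring peak was at most 10 kb, and kept peaks were chained. The rule kept 887 of 3878 peaks (22.9%) in 390 clusters, and the other 2991 peaks had no neighbour that close.

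The study mapped Bcl6 by chromatin immunoprecipitation and sequencing (ChIP-seq), with 3 libraries made after Bcl6 immunoprecipitation and 3 of input DNA, for which no antibody was used. Both groups were A2 lox.Cre Bcl6 progenitors, from an ES line in which doxycycline (a tetracycline) switches on a Bcl6 transgene, at differentiation day 12 after 24 h with 1 µg/ml doxycycline. The line had been kept on mouse fibroblast feeders and was treated with the hedgehog inhibitor cyclopamine during differentiation; cells without doxycycline were not analysed here, so endogenous and induced Bcl6 cannot be told apart. The 3 libraries of a group were pooled by the authors (11718276 ChIP and 5048582 input tags kept), so every peak value is the authors' own from 1 pooled data set with no replicate error, and no comparison was tested.

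Bcl6 is a transcriptional repressor with a BTB domain and zinc fingers. It is required in B cells of the germinal centre, where it recruits corepressors to silence its targets. In the developing cortex it promotes neurogenesis by repressing genes of the Notch, Wnt and other proliferative pathways. Its zinc fingers recognise a DNA motif that resembles the sites of STAT factors, and several of its targets are genes of cytokine feedback.

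Sequences of promoters that lay wholly inside clustered peaks are shown because they carry letters of this STAT-like class. The letters searched were TTCNNNGAA, which reads the same on both strands, and TTCCTAGAA on both strands, which is contained in the first. Windows ran from 250 bp before to 50 bp after a RefSeq transcription start site (TSS, GRCm38.p6, the same build as mm10). TTCNNNGAA stood in 33 of 526 windows inside clustered peaks (6.27%, exact 95% interval 4.36 to 8.70%), in 136 of 2200 inside other peaks (6.18%, 5.21 to 7.27%) and in 2726 of all 32851 windows (8.30%). TTCCTAGAA stood in 0 of the 526, which allows a share of up to 0.570%, in 9 of the 2200 (0.409%) and in 135 of all windows (0.411%). The shares in clustered and other peaks were thus alike for the palindrome, and the interval for clustered peaks includes the 8.30% of all windows, while that for other peaks lies below it. Median GC content was 62.7% in windows of clustered peaks, 66.0% in those of other peaks and 52.7% over all windows, and its part in the shares was not tested. A match describes letters and not a bound site.

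The 33 windows belonged to 31 genes, and 5 are printed, chosen after their values were seen. Irf1 encodes an interferon response factor, and Socs3 a feedback inhibitor of cytokine signalling. Klf9 encodes a Krüppel-like factor. Zfp458 and F630042J09Rik lay in the same cluster of 2 peaks. Capitals mark TTCNNNGAA, 5′ to 3′ on the gene's strand.
Irf1, chr11:53769764-53770063, plus strand: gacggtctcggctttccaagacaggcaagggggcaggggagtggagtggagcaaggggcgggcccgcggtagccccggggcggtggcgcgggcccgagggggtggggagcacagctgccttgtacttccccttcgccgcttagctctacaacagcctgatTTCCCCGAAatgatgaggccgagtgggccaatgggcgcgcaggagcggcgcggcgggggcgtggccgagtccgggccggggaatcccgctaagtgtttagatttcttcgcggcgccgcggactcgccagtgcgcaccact
Socs3, chr11:117969317-117969616, minus strand: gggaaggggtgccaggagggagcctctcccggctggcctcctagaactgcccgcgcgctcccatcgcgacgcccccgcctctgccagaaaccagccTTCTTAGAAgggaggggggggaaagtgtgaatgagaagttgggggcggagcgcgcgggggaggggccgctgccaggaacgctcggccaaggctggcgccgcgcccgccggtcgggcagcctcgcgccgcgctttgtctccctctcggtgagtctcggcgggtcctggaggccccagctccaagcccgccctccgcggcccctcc
Zfp458, chr13:67268945-67269244, minus strand: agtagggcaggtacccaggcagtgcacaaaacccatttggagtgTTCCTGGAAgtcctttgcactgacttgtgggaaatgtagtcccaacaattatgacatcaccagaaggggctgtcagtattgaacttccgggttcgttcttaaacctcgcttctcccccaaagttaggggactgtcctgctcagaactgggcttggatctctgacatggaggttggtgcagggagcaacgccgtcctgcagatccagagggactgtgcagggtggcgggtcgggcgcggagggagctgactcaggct
F630042J09Rik, chr13:67278344-67278643, plus strand: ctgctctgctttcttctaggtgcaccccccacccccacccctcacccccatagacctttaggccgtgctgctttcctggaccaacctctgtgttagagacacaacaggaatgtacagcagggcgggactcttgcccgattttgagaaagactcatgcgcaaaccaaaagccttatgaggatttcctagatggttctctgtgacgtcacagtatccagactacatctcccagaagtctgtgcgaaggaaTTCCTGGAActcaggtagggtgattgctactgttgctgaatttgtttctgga
Klf9, chr19:23140976-23141275, plus strand: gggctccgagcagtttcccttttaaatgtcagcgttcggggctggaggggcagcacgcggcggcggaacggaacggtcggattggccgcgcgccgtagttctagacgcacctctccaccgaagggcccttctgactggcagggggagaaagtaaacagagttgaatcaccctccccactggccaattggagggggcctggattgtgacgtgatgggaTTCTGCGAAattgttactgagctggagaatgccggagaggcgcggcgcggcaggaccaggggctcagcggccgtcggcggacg

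The match in the Irf1 window lay 9 bp from the summit of its peak, the base of highest tag pile-up, and 90 bp upstream of the TSS. In the Zfp458 window it lay 34 bp from the summit and in the F630042J09Rik window 87 bp. Both of these windows held the same letters, TTCCTGGAA. In the Socs3 and Klf9 windows the match was farther from the summit, at 252 and 249 bp.

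Fold enrichment is the ratio of ChIP tags to the local background that the peak caller read from the input, and tags are counts of ChIP reads kept in the peak. The peak over the Irf1 TSS had 15.1-fold enrichment and 56 tags, and its companion 10.4 kb upstream had 18.3-fold and 83 tags. The Socs3 promoter peak had 16.8-fold and 70 tags, and that 5950 bp downstream had 20.7-fold and 59 tags. Zfp458 had 37.4-fold and only 31 tags at its TSS, in a peak of 772 bp, and the peak of F630042J09Rik had 26.6-fold and 58 tags. Klf9 had 3 clustered peaks, of 16.7-fold 6183 bp upstream, 25.4-fold 702 bp downstream and 16.0-fold 11.1 kb downstream of the TSS. A whole promoter window of the noncoding gene 2410080I02Rik lay inside the upstream peak.

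Most clusters were pairs. There were 310 clusters of 2 peaks (79.5%), 60 of 3, 14 of 4, 5 of 5 and 1 of 6. A cluster spanned a median of 9.17 kb (quartiles 6.21 and 12.1 kb, range 1.52 to 41.1 kb), of which its peaks covered a median of 52.9%. The clustered peaks covered 1.98 of the 6.56 Mb under all peaks (30.2%) and held 97137 of the 297616 tags in peaks (32.6%).

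The gap between neighbours had no break at the 10 kb limit. The 497 gaps inside clusters had a median of 3224 bp (quartiles 1110 and 6164 bp), against 135 kb over all 3856 gaps between peaks. Of the 497, 115 (23.1%) were under 1000 bp and 38 were under 100 bp, and the narrowest was 5 bp. Gaps under 100 bp are shorter than the 188 bp fragment that the peak caller assumed, and whether such neighbours are pieces of a broader region was not tested. Just inside the limit lay the peaks of Traf4 (gap 9864 bp; 16.0- and 13.3-fold), of Crtc2 and Dennd4b (9823 bp; 23.9- and 17.6-fold) and of Tapbp and Rgl2 (9813 bp; 16.9- and 27.1-fold). Just outside it lay those of Cpt1c and Prmt1 (10011 bp; 33.1- and 16.5-fold), Kpna2 (10053 bp; 39.4- and 12.3-fold) and Slc16a3 (10073 bp; 26.6- and 31.9-fold).

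**Figure D1:**
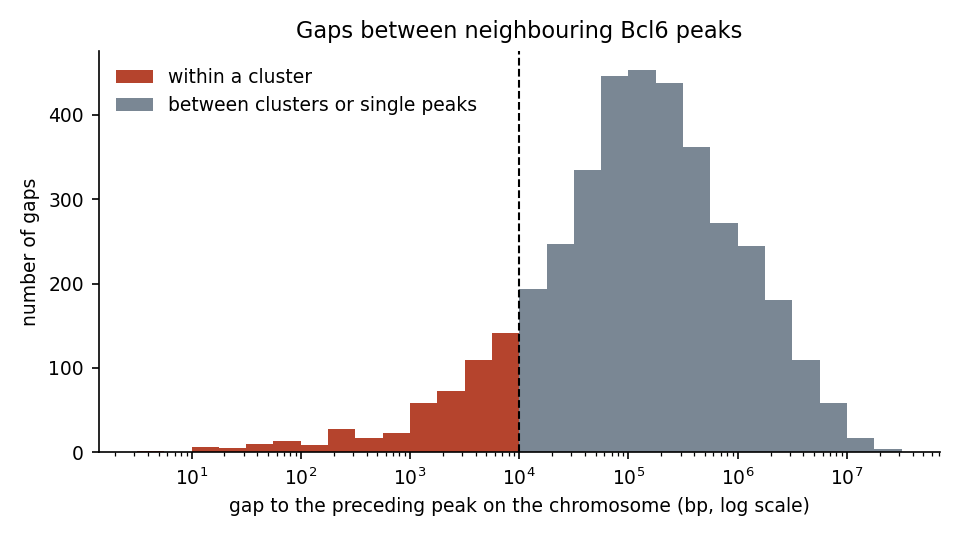
Number of gaps between neighbouring peaks by gap length in bp on a log axis, with gaps of at most 10 kb coloured as clustered and longer ones as other. The 497 clustered gaps form the lower tail of 3856 gaps, with no dip at the limit.

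Clustered peaks were wider and held more tags than the others, and were slightly less enriched. Median width was 1827 bp in clustered peaks (quartiles 1294 and 2717 bp) and 1336 bp in other peaks (1051 and 1750 bp), and 44.2% of clustered peaks were over 2 kb wide, against 16.5% of other peaks. The median tag count was 78 in clustered peaks and 55 in other peaks. Per kb of peak the counts were closer, with medians of 41.9 and 39.6 tags. Median fold enrichment was 19.5-fold in clustered peaks (quartiles 15.8 and 24.8, range 8.36 to 148) and 21.6-fold in other peaks (17.3 and 27.7, range 7.98 to 269). Enrichment over 50-fold was seen in 12 of 887 clustered peaks (1.35%, exact 95% interval 0.701 to 2.35%) and in 109 of 2991 other peaks (3.64%, 3.00 to 4.38%). Peak edges set the gaps that chose the members, so width is not independent of the rule, and these values are a description.

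Within classes of width the folds were nearer. Peaks over 2 kb wide had a median of 17.1-fold when clustered and 17.3-fold otherwise, and narrower peaks 20.5-fold when clustered and 22.3-fold otherwise. The difference in median fold was larger away from listed TSSs. Over 5 kb from a TSS the median was 19.5-fold in 321 clustered peaks and 24.4-fold in 959 other peaks, while within 1 kb it was 19.9-fold in 357 clustered and 20.4-fold in 1814 other peaks. Median widths of clustered and other peaks differed too, at 1718 and 1117 bp over 5 kb away and 1773 and 1401.5 bp within 1 kb. The part of width in these folds was not tested.

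**Figure D2:**
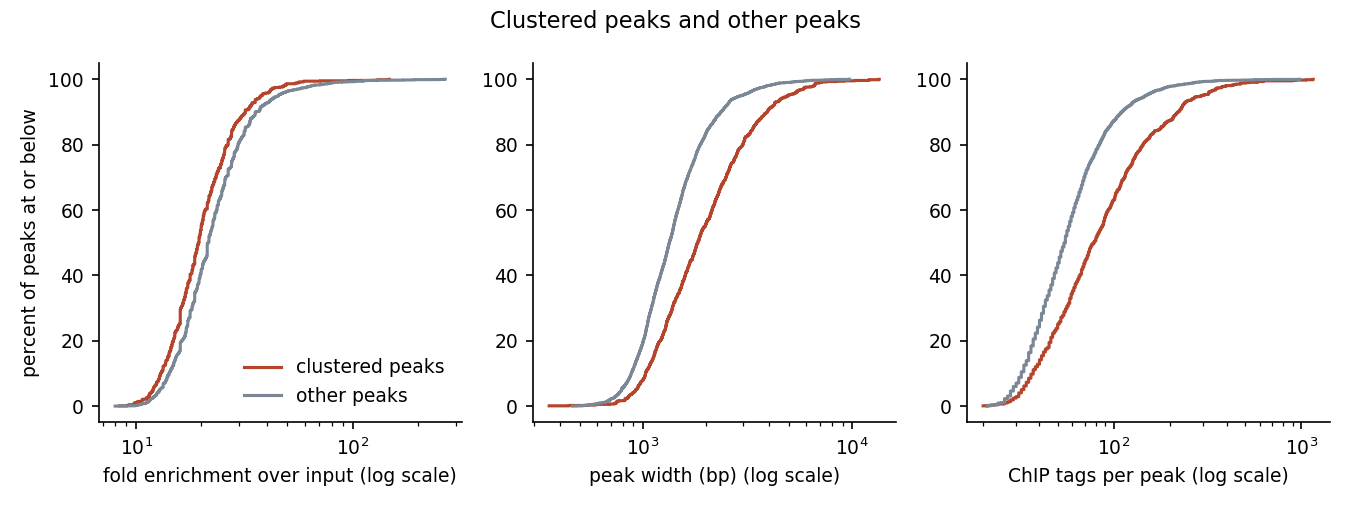
Cumulative percent of clustered and other peaks by fold enrichment, width in bp and tag count, on log axes. The curves of clustered peaks are shifted to greater width and tag count and slightly to lower fold.

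Promoter peaks were a smaller share of clustered peaks than of other peaks, and peaks centred 1 to 5 kb from a TSS a larger share. Here a promoter peak is one whose centre is within 1 kb of a TSS in the authors' gene list, which gives the distance of the peak centre to each TSS. Promoter peaks made up 357 of 887 clustered peaks (40.2%, exact 95% interval 37.0 to 43.6%) and 1814 of 2991 other peaks (60.6%, 58.9 to 62.4%). The next class, 1 to 5 kb away, held 209 clustered peaks (23.6%) and 215 other peaks (7.19%). In this class the median width was 2297 bp in clustered and 1586 bp in other peaks, and 57.4% and 28.4% were over 2 kb wide. The classes go by peak centre, so a wide peak centred over 1 kb away can still cover the TSS. At 5 to 50 kb lay 30.6% of clustered and 22.2% of other peaks, and beyond 50 kb 5.64% of clustered and 9.86% of other peaks. A peak centre lay downstream of its nearest TSS in 65.7% of clustered and 57.1% of other peaks. The share centred in a protein-coding gene was alike, at 63.9% of clustered and 64.1% of other peaks. The rule bears on these shares, since neighbouring peaks cannot all be centred on 1 TSS.

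Seen as clusters, promoters were common. In 260 of 390 clusters (66.7%) at least 1 peak was a promoter peak. In 180 clusters the promoter peaks were of 1 gene (median span 8.94 kb), and in 80 they were of 2 or more genes (11.2 kb). A further 59 clusters had no promoter peak but a TSS within 5 kb of a peak centre. These had the widest peaks, with a median of 2367 bp, and the most tags, with a median sum of 289. The types go by peak centres, so wide peaks of these 59 clusters can still cover a TSS. Whole promoter windows of Hnrnph1 and Brd2 lay inside such peaks. In the last 71 all peak centres lay over 5 kb from a TSS in the authors' gene list, with a median span of 6.88 kb and a median sum of 140 tags. Some of these clusters overlapped noncoding genes, such as Malat1 and Lncenc1, while the nearest listed TSSs were those of other genes. Peaks of this type can thus cover a TSS that the list does not hold. Those 71 held 5 of the 12 clustered peaks over 50-fold. All peaks of a cluster shared a listed gene in 298 clusters (76.4%), and in 121 (31.0%) peak centres lay on both sides of a TSS.

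Around a single promoter, the companion peaks lay mostly downstream of the TSS. The 180 clusters with a single promoter gene held 213 companion peaks, 176 of them listed for the same gene. Companions were defined by peak centres and the authors' gene list. A companion can thus cover the promoter of an unlisted gene, as upstream of Klf9. Of the 176, 130 (73.9%) lay downstream of the TSS at a median of 6295 bp, and 46 lay upstream at a median of 5700 bp. The centre was in the body of the promoter's gene for 68 of 203 companions whose gene was matched in RefSeq (33.5%). Companion and promoter peaks did not stand apart in strength. The median was 19.5-fold in both, and the companion was the stronger in 111 cases and the weaker in 100. Across all clusters the strongest peak had a median of 1.45 times the fold of the weakest (quartiles 1.18 and 1.77).

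**Figure D3:**
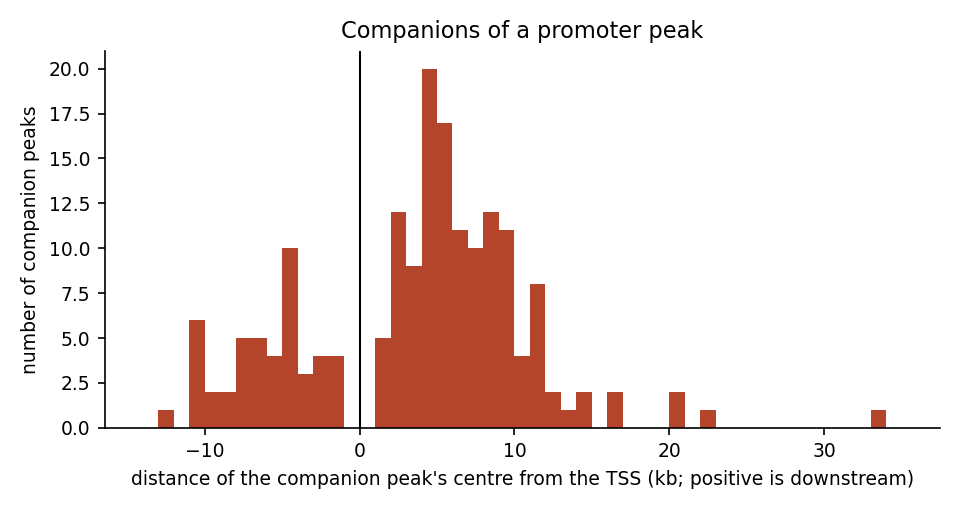
Number of companion peaks by distance in kb from the TSS of the promoter peak's gene, in clusters with a single promoter gene, negative values being upstream. Of the 176 companions, 130 are downstream and 46 upstream.

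The largest cluster ran along the histone genes of chromosome 13. It had 6 peaks at chr13:23738516-23765250 (mm10) over 26.7 kb with 1233 tags. Its peaks lay near linker histone genes, Hist1h1c (48.9-fold, 358 tags) and Hist1h1a (39.6-fold, 216 tags), and near core histone genes, Hist1h4a (56.2-fold, 224 tags), Hist1h3b (37.8-fold, 124 tags), Hist1h4b (37.5-fold, 68 tags) and Hist1h3c (16.9-fold, 243 tags). All but the peak at Hist1h3c thus had over 37-fold enrichment, above the upper quartile of 24.8-fold for clustered peaks. A second histone cluster lay on the same chromosome with 4 peaks over 14.1 kb, of 43.4-fold at Hist1h2bg, 13.7-fold at Hist1h3d and 14.8- and 18.3-fold at Hist1h4d. Histone genes are near-identical copies, and the treatment of reads that match several of them was not given in the sources used here, so the split of tags among them is uncertain.

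The longest cluster joined a pluripotency gene and a glucose transporter gene. It spanned 41.1 kb on chromosome 6, with peaks near Nanog, a core ES cell factor, 4329 bp upstream (16.6-fold, 110 tags), 755 bp downstream (19.2-fold, 96 tags) and 8019 bp downstream (15.1-fold, 94 tags) of its TSS. The other peaks were 14.6 kb (20.5-fold, 236 tags) and 1400 bp (17.02-fold, 129 tags) downstream of the TSS of Slc2a3. All 5 folds lay near the median of 19.5-fold for clustered peaks, and all 5 tag counts were above the median of 78.

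Single genes carried other large clusters. Zmynd8, which encodes a reader of modified histones, had 5 peaks 29.3 to 46.9 kb downstream of its TSS, of 10.2- to 27.3-fold with 922 tags in all, and these covered 81.5% of the span of 22.2 kb. Eno1, a glycolytic enzyme gene, had 5 peaks, of 18.6-fold 260 bp downstream of its TSS and 22.0-, 18.6-, 28.7- and 12.7-fold farther downstream, up to 20.9 kb. The last 4 of these were also listed for the corepressor gene Rere. Tgif1, which encodes a homeodomain repressor of TGF-beta targets, had 4 peaks 965 bp to 22.5 kb downstream of its TSS (14.7-, 12.7-, 12.0- and 19.8-fold) and a second cluster of 2 peaks upstream (15.6- and 14.4-fold). Rcor2, a gene of the CoREST corepressor family, had 4 narrower peaks of 15.0- to 24.8-fold on both sides of its TSS. At Slc25a39, a mitochondrial carrier gene, 4 peaks of 20.0- to 33.0-fold also lay on both sides.

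Most of the remaining clusters of 4 or more peaks lay over several genes. On chromosome 11, 5 peaks of 11.1- to 25.3-fold lay over Sox15, Mpdu1, Cd68 and the translation factor gene Eif4a1, and 4 of 11.6- to 20.5-fold over Traf4, Tlcd1 and Rab34. On chromosome 7, 5 peaks of 12.3- to 17.9-fold lay over Zfp553, Zfp771 and Dctpp1, 4 over Tmem238, Rpl28 and Ube2s (13.7- to 26.03-fold), and 4 over Dbp, Rpl18 and Fam83e (9.04- to 24.5-fold). On chromosome 10, 4 peaks lay at Pias4, Eef2, Dapk3 and Nmrk2, of which that at Dapk3, a kinase gene, had 59.4-fold, and 2 further clusters of 4 lay at Midn and Cirbp and at Mex3d, Mbd3 and Uqcr11. On chromosome 17, Daxx, Zbtb22, Tapbp and Rgl2 had 15.2-, 54.1-, 16.9- and 27.1-fold. The last 3 of these clusters lay at Hsp90aa1 on chromosome 12 (14.2- to 16.2-fold), at Junb and Hook2 on chromosome 8 (17.02- to 27.6-fold) and at Islr2 and Pml on chromosome 9 (10.7- to 35.5-fold).

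**Figure D4:**
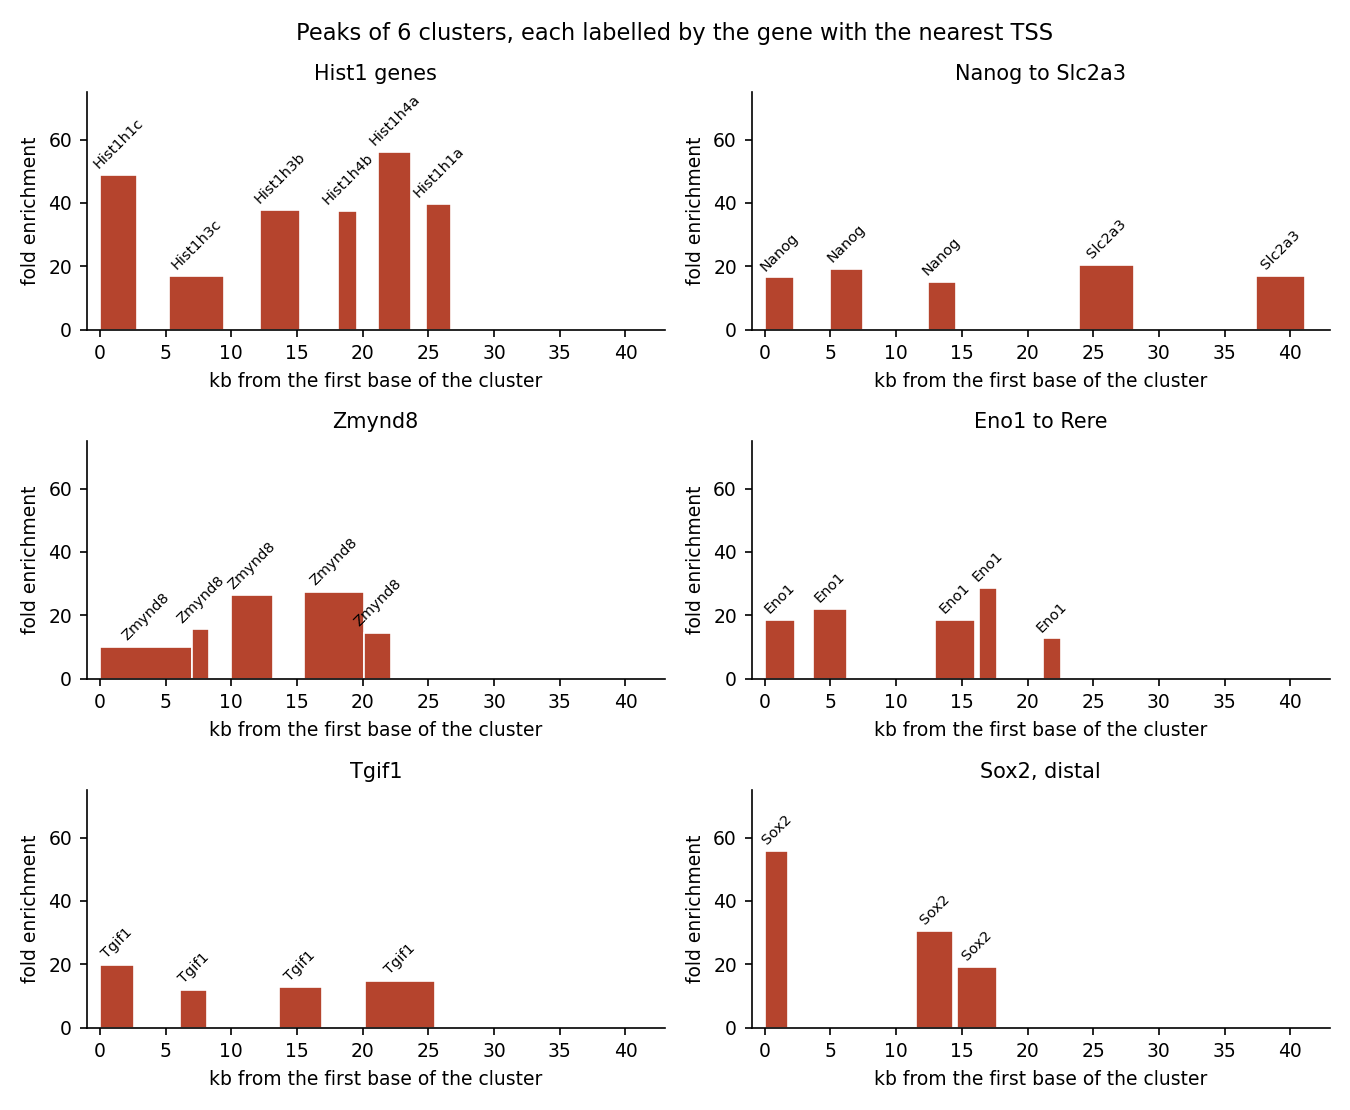
Peaks of selected clusters by position in kb from the start of the cluster, bar height giving fold enrichment. The 6 histone peaks reach 56.2-fold, while the 5 peaks near Nanog and Slc2a3 stay at or under 20.5-fold.

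The most enriched clusters were few and often uneven. The strongest clustered peak had 148-fold enrichment, 901 tags and a width of 9129 bp. Its centre lay in the gene body of Rhof and 3512 bp upstream of the TSS of Setd1b, which encodes a histone H3 lysine methyltransferase. The peak was wide enough to reach over the Setd1b TSS. Its neighbour at the Rhof promoter had 19.8-fold and 95 tags, a ratio of 7.48, the highest of the 390 clusters. On chromosome 6 a peak of 131-fold with 97 tags stood beside 1 of 42.6-fold, both over 100 kb from the nearest listed TSS. Akap12, a scaffold gene, had 129.6-fold 15.4 kb upstream and 17.7-fold 22.0 kb upstream of its TSS. Upstream of Rapgef1 peaks of 95.7- and 40.8-fold lay 119 and 126 kb away, and upstream of Aebp2, a Polycomb cofactor gene, 70.9- and 16.0-fold. The immediate early gene Ier2 had 59.2-fold with 377 tags 1650 bp downstream of its TSS, between peaks of 16.0- and 14.1-fold. Amdhd2 and Atp6v0c had 56.9- and 34.3-fold. Narrow peaks made up several of these, with 954 bp on chromosome 6, 814 bp at Akap12 and 1107 bp at Rapgef1.

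Wide peaks led the clusters with the most tags, and several of them lay over noncoding RNA genes. On chromosome 13 (97482084 to 97517691) 3 peaks with 1642 tags overlapped the long noncoding RNA gene Lncenc1, of 20.7-fold and 932 tags over 13470 bp, 17.3-fold and 625 tags over 12023 bp, and 13.3-fold and 85 tags. A cluster of 1479 tags overlapped the ribosomal RNA related Rn18s-rs5, where the empirical false discovery rate was 33.3% for the larger peak. Over Malat1, a nuclear noncoding RNA gene, a peak of 11974 bp had 18.6-fold, 1061 tags and a rate of 7.14%. Eef1a1 had 816 tags in 2 peaks, Rpl3 808 in 3, Mcl1 and Adamtsl4 784 in 2 and Srsf3 761 in 2, and the clusters at the Hist1 genes, Setd1b and Zmynd8 described above were also among the 10 with the most tags. Over all clusters, 12 overlapped a noncoding gene and no protein-coding gene, and 27 overlapped a microRNA gene. Neither count was made for other peaks. The share of peaks centred in an annotated gene but in no protein-coding gene was alike, at 4.96% of clustered and 5.28% of other peaks.

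Clustered peaks tied in 875 of the 4540 genes listed for any peak, and 476 of the 4540 (10.5%) had 2 or more peaks of 1 cluster. Of the 924 genes with 2 or more peaks anywhere, these were 51.5%. The genes below are counted against that 10.5%, by lists of pathways and cell types. Counts of genes depend on wide peaks: with only peaks of at most 2 kb chained, 193 of 3748 listed genes (5.15%) had 2 or more peaks of 1 cluster.

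Housekeeping and pluripotency genes had the highest shares. Of 17 housekeeping genes with a peak, 10 had 2 or more peaks of 1 cluster (58.8%), and 19 of the 25 clustered peaks of these genes were over 2 kb wide. Gapdh, the glycolytic enzyme gene, had 22.9-fold with 350 tags and 19.3-fold with 349 tags. Hsp90ab1, a chaperone gene, had 33.4-fold with 504 tags and 26.4-fold with 219 tags, and the cyclophilin gene Ppia 41.9- and 11.2-fold. The 33.4-fold peak was centred outside the Hsp90ab1 gene body, and its nearest listed TSS was that of Slc35b2. Further members were Ubb, Hspa8, Eef1a1, Tuba1b, Tubb5 and Eno1. With peaks of at most 2 kb alone, 2 of 6 remained, Eef1a1 and Eno1.

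Of 18 pluripotency genes with a peak, 9 had 2 or more of 1 cluster (50.0%), namely Nanog, Sox2, Zfp42, Klf2, Tbx3, Dppa5a, Utf1, Fgf4 and Lefty1. Zfp42, the ES cell marker Rex1, had 25.5-fold with 393 tags 17.0 kb downstream of its TSS and 15.5- and 18.1-fold nearer to it. Klf2 had a peak of 13.6-fold, 385 tags and 6964 bp, and 1 of 24.7-fold with 35 tags. Tbx3 had 3 peaks, of 17.3-fold at the TSS and 16.0- and 27.6-fold downstream. Pou5f1, which encodes Oct4, was listed for 1 clustered peak, of 18.2-fold 1835 bp upstream. Of the 26 clustered peaks of the 9 genes, 16 were over 2 kb wide, and with peaks of at most 2 kb alone 2 of 12 genes remained, Zfp42 and Tbx3.

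Of 10 cortical progenitor genes with a peak, 4 had 2 or more of 1 cluster (40.0%), and with peaks of at most 2 kb alone 1 of 9 (11.1%), Sox9. Over 2 kb wide were 6 of their 11 clustered peaks. Sox2, which maintains neural progenitors as well as ES cells, had 5 peaks in 2 clusters. Near the TSS there were 11.1-fold with 318 tags over 7151 bp and 17.02-fold with 67 tags, and 95.1 to 110 kb downstream there were 55.9-, 30.6- and 19.2-fold with 95, 148 and 118 tags. Sox9 had 33.2- and 19.2-fold within 2867 bp of its TSS, and Otx2, a forebrain homeobox gene, 19.0- and 11.5-fold downstream. The Notch effector Hes1 had 13.0-fold with 162 tags and 15.1-fold with 68 tags, in peaks 76 bp apart. Their centres lay 1219 bp upstream and 1449 bp downstream of the Hes1 TSS, and the upstream peak, 3592 bp wide, covered the TSS. Of 13 cortical neuron genes with a peak, 1 qualified (7.69%, against 10.5% of all genes), the RNA-binding gene Elavl3 (20.6- and 35.5-fold).

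In signalling pathways the genes that qualified had several roles, from ligands to transcription factors. Of 22 BMP and TGF-beta genes with a peak, 5 qualified (22.7%): the ligand Nodal (15.6- and 28.2-fold), its antagonists Lefty1 (31.9- and 18.2-fold) and Lefty2 (20.0- and 24.8-fold), the repressor Tgif1 and the ubiquitin ligase Smurf1 (14.9- and 27.7-fold). Of 22 FGF and IGF genes, 5 qualified (22.7%). These were the ligand genes Fgf4, Fgf15 and Fgf18 (34.3-fold with 269 tags and 9.22-fold), the transcription factor Etv5 (16.8- and 18.9-fold) and the receptor Igf1r (36.4- and 23.6-fold). The 9.22-fold peak of Fgf18 was also listed for Npm1, centred in the Npm1 gene body 4779 bp downstream of the Npm1 TSS. A promoter peak of Npm1 (26.6-fold) lay in the same cluster. Fgf4 and Fgf15 shared the same 2 peaks, of 16.1- and 21.3-fold, which lay 10 bp apart, 3125 and 5537 bp downstream of the Fgf4 TSS and 32.0 and 29.6 kb upstream of that of Fgf15. With peaks of at most 2 kb alone, 1 of 20 BMP and TGF-beta and 0 of 12 FGF and IGF genes remained.

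Notch genes qualified in 2 of 13 cases (15.4%; with peaks of at most 2 kb alone 1 of 9, Notch2), the receptor Notch2 (21.4- and 24.7-fold) and Hes1, and Sonic hedgehog genes in 1 of 5, the receptor Ptch1 (16.2- and 17.02-fold). None of 21 Wnt genes with a peak did. The receptor gene Ryk was listed for 1 clustered peak of 38.4-fold 108 kb upstream. That peak was centred in the gene body of Amotl2, 9281 bp downstream of the Amotl2 TSS. Of 13 JAK-STAT genes, 3 qualified (23.1%; with peaks of at most 2 kb alone 1 of 12, Socs3), namely Socs3 and the kinase genes Pim1 (38.3-fold with 144 tags and 18.7-fold) and Pim3 (11.5- and 24.8-fold). Of 15 genes of the G1/S transition, 4 qualified (26.7%; with peaks of at most 2 kb alone 1 of 12, Ccnd1). Cdk4 had 21.9-fold 62 bp upstream and 26.6-fold with 217 tags 5451 bp downstream of its TSS. The downstream peak was centred outside the Cdk4 gene body, and its nearest listed TSS was that of Tspan31. Ccnd1 had 24.8- and 20.0-fold 2161 bp and 10.5 kb downstream, and Mycn 16.0- and 23.3-fold. The inhibitor gene Cdkn1a was listed for a cluster 12.4 and 14.9 kb upstream (25.1- and 15.6-fold) and for the peaks over Srsf3.

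Among Bcl6 targets known from lymphoid cells, 3 of 12 qualified (with peaks of at most 2 kb alone 1 of 8, Socs3), namely Socs3, Cdkn1a and Trp53 (16.0-fold with 225 tags and 12.7-fold). Bcl6 itself (64.8-fold), Ccnd2 (45.4-fold), Socs2 (171-fold) and Cish (63.3-fold) had 1 peak each, none of them clustered. All 4 exceeded the highest values of the 3 clustered targets, of 25.1-fold. These 4 were among genes fixed for naming with earlier results of these data known. Other unclustered targets of the list were not compared. Actb, the beta-actin gene, likewise had 1 unclustered peak (33.4-fold), and Hes5, another Notch effector, had none. Zmiz1, a transcriptional coregulator gene, had 4 of its 6 peaks in 2 clusters, of 27.5- and 16.0-fold near its TSS and 35.5- and 16.0-fold 146 and 148 kb downstream. Of 10 corepressor and partner genes, Ctbp2 qualified (10.0%, near the 10.5% of all genes), and with peaks of at most 2 kb alone 0 of 8 did. Ctbp2 had 24.4-, 34.0- and 14.6-fold 97.7 to 108 kb upstream of its TSS. Of 16 Krüppel-like and Sp factor genes, Klf2, Klf3 and Klf9 qualified (18.8%, and with peaks of at most 2 kb alone 1 of 13, Klf3).

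The lists of other cell types and of Hox genes had no member with 2 or more peaks of 1 cluster. These were mesoderm and endoderm (0 of 5 with a peak), fibroblast (0 of 1) and Hox genes (0 of 4). So few of their genes had a peak that 0 cannot be told apart from the 10.5% of all genes.

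**Figure D5:**
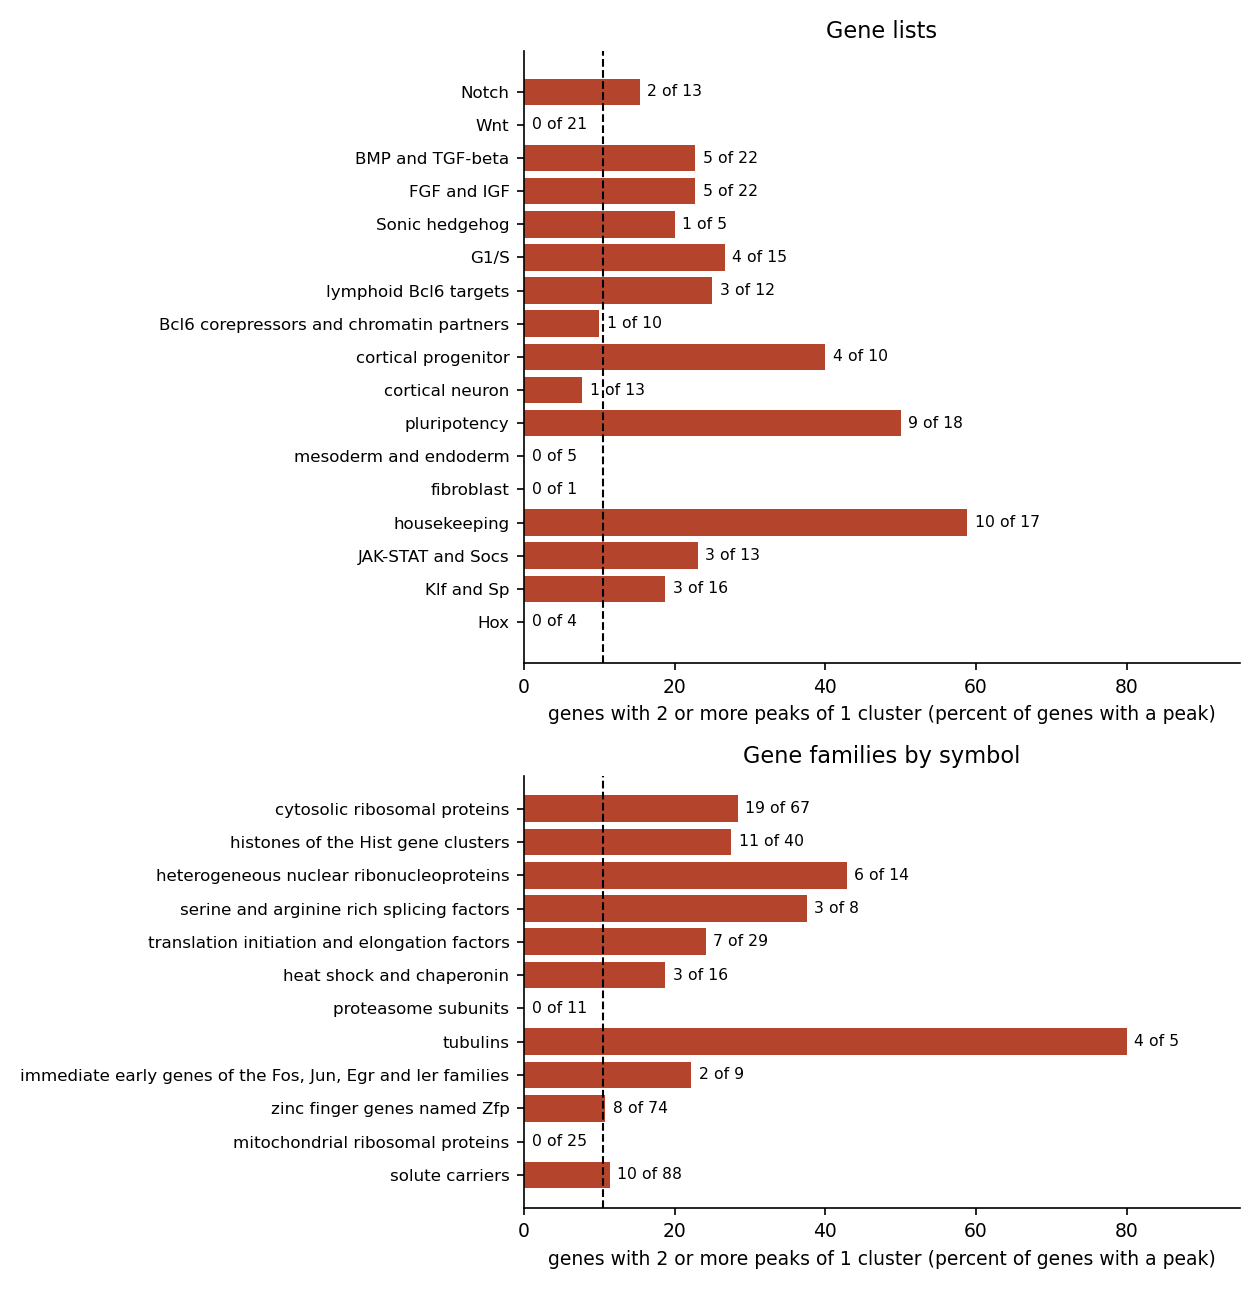
Percent of genes with a peak that had 2 or more peaks of 1 cluster, by gene list above and by gene family named by symbol below, with the number of genes written beside each bar and a dashed line at 10.5% for all genes. Among the lists, housekeeping (58.8%) and pluripotency (50.0%) stand highest. The lists of Wnt (21 genes with a peak), mesoderm and endoderm (5), fibroblast (1) and Hox genes (4) are at 0.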

How the data were processed

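ChIP and input libraries were pooled by the authors before peak calling, per the series' design. Reads were aligned with Bowtie to mm10, per the submitters' processing notes. The peak caller was MACS 1.4.2, per the file headers, run at a band width of 300 bp and a p-value cutoff of 1e-05. It assumed fragments of 188 bp and kept 1 tag per position. The deposited tag values are raw counts per peak. The deposited fold enrichment is the authors' ratio of ChIP to local input background. The deposited score is the authors' −10 log10 of the p-value; its column name had been overwritten, and it was recognised by column order and a minimum of 50.03. The empirical false discovery rate is a percent in the authors' deposited table. Genes and centre-to-TSS distances were deposited from GREAT 3.0.0, per the file headers.

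Gaps were computed as the next start minus the previous end, and peaks were chained with Python 3.11.15, pandas 2.3.3, numpy 2.4.6 and scipy 1.17.1, and plotted with matplotlib 3.10.9. The chaining was tested on simulated data. The link between peak numbers and genes was checked on 1076 of 1459 pairs of clustered peak and gene with a RefSeq TSS: the TSS placed from the distance was a median of 10 bp away, and 95.2% were within 1000 bp. Summit offsets were read as 1-based. Exact binomial intervals at 95% and limits for a count of 0 (3 counts) cover counting only, and peaks and genes are not replicates. Clustered peaks come in chains, so intervals on shares of peaks may be too narrow.

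The clusters named were all of 4 or more peaks, the 10 with the highest single fold, the 10 with the most tags and the 5 longest; genes of the fixed lists were named where they had a cluster. The members, the 17 gene lists and the 12 gene families were chosen with earlier results of these data known, the families after their values were seen. No genome sequence was used, so peak sequences outside promoter windows were not searched. Promoter windows of chromosome 18 were not used here, so the motif counts do not cover it. A housekeeping gene counted in its list is not reported here by name.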

Additional observations from a re-analysis of the deposited data

How the results depend on the processing

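Of 85 alternative values for 10 results, 53 were labelled as close to the reported value and 32 as moved. The label of close was broad for counts, and the numbers of peaks and clusters depended on the gap limit. A gap of at most 5000 bp kept 604 peaks in 276 clusters, and 20000 bp kept 1271 in 529. These were labelled as close to the reported 887 peaks in 390 clusters. No value was labelled as moved with a false discovery rate of at most 5% (3840 peaks) or without chromosome Y and unplaced sequence. The same held with gaps from summit to summit, where 776 peaks stayed in 348 clusters, 59 of 3 or more against 80. With a gap of at most 5000 bp there were 39 clusters of 3 or more peaks, a median width of 1937 bp, a median of 85 tags, a gene shared by all peaks in 84.8% of clusters and 581 genes listed. With 20000 bp the values were 145 clusters of 3 or more, 1718 bp, 72 tags, 62.8% with a shared gene, 45.7% promoter peaks and 72.6% of clusters with a promoter peak. With the 1939 peaks at or above the median score, 369 peaks stayed in 169 clusters, 20 of 3 or more, with medians of 20.5-fold, 2348 bp and 113 tags and 385 genes. With promoter windows of 2 and 5 kb, 47.2% and 63.8% of clustered peaks and 73.1% and 81.8% of clusters were at promoters. With the nearest TSS alone 559 genes were listed. Alternatives chosen after seeing the data were leaving out peaks over 2000 bp wide (339 peaks in 159 clusters, 19 of 3 or more, medians of 21.4-fold, 1300.0 bp and 52 tags, 340 genes) and merging peaks under 1000 bp apart (52 clusters of 3 or more, 44.7% promoter peaks). The number of clusters and of genes moved most, among the alternatives run, without wide peaks and with the higher scores.

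The libraries were pooled, and no library was left out, so the spread between cultures is unknown. Input depth was lower than ChIP depth, and a fold at a narrow peak of few tags, such as 31 tags at Zfp458, rests on few reads.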

Other observations

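Gene families taken by name, chosen after their values were seen, also differed in how many of their genes with a peak had 2 or more peaks of 1 cluster, against 10.5% of all 4540 genes. The shares were 28.4% for cytosolic ribosomal proteins (19 of 67), 42.9% for heterogeneous nuclear ribonucleoproteins (6 of 14), 37.5% for serine and arginine rich splicing factors (3 of 8), 24.1% for translation factors (7 of 29), 27.5% for histones (11 of 40) and 80.0% for tubulins (4 of 5). Mitochondrial ribosomal proteins had 0 of 25 genes and proteasome subunits 0 of 11. Zinc finger genes named Zfp had 10.8% (8 of 74) and solute carriers 11.4% (10 of 88). Chaperones had 18.8% (3 of 16) and immediate early genes of the Fos, Jun, Egr and Ier families 22.2% (2 of 9). Many of these clustered peaks were over 2 kb wide: 25 of 44 for ribosomal protein genes, 13 of 14 for ribonucleoprotein genes, 9 of 18 for histone genes and 6 of 8 for tubulin genes, but also 13 of 22 for solute carriers, whose share was near that of all genes. With narrower peaks alone, against 5.15% of all genes, 3 of 32 ribosomal protein genes, 0 of 3 ribonucleoprotein genes, 0 of 2 splicing factor genes, 2 of 22 translation factor genes, 2 of 29 histone genes (6.90%), 0 of 3 tubulin genes, 1 of 8 chaperone genes, 0 of 8 immediate early genes, 3 of 58 Zfp genes and 4 of 79 solute carriers remained. The part of peak width in the shares was not tested. Rpl11, a large subunit protein gene, had 33.6-, 19.0- and 23.4-fold at 200, 2526 and 4505 bp downstream of its TSS, all in peaks under 2 kb, the last of them centred outside the gene body.

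The share of peaks in clusters varied over chromosomes, against 22.9% over all peaks. Chromosome 17 had 90 of 221 peaks in clusters (40.7%, exact 95% interval 34.2 to 47.5%) and chromosome 7 had 97 of 327 (29.7%, 24.8 to 34.9%). Chromosome 19 had 35 of 120 (29.2%, 21.2 to 38.2%), an interval that includes 22.9%. The rule keeps peaks in chains, so the counts are not independent and the intervals here are too narrow to serve as a test against 22.9%. The lowest shares were those of chromosome 12, with 10 of 115 (8.70%, 4.25 to 15.4%), chromosome 18, with 8 of 80 (10.0%, 4.42 to 18.8%), and chromosome X, with 6 of 49 (12.2%, 4.63 to 24.8%), leaving aside chromosome Y and unplaced sequence with 1 peak each. Windows of 5 Mb held up to 11 clusters, on chromosome 8 from 70 to 75 Mb.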
